A study of Mus musculus with 28 samples.

Results

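The newborn stage of the axon-TRAP series compared mRNAs recovered with an HA antibody from the superior colliculus (SC) of Cre-positive and Cre-negative mice at P0.5. It took up 4 of the 28 samples, with 2 Cre-positive and 2 Cre-negative SC libraries. Genes entered when they reached 1 FPKM (a count of sequenced fragments scaled by transcript length and library size) in at least 2 of the 4 libraries, and 4014 of the 23995 genes in the files were tested. A RiboTag female, homozygous for an allele of Rpl22 that gains an HA tag after Cre recombination, was crossed to a male carrying Pax6-alpha-Cre. Animals of both groups therefore carried 1 RiboTag allele beside 1 wild-type allele, and the groups differed in the Pax6-alpha-Cre transgene. Pups of both genotypes were littermates, the strain was C57BL/6, and the SCs of several pups were pooled for each library. This Cre acts for a short time in progenitors of the peripheral retina, so central retinal ganglion cells stay untagged and other neurons born in the peripheral retina carry the tag as well. The sample titles write the stage as P1, and P0.5 is the age given among the sample characteristics.

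Retinal ganglion cells (RGCs) are the output neurons of the eye, and their axons end in the SC of the midbrain, far from the cell body. Around birth these axons form interstitial branches in the SC and begin to make synapses. In the RiboTag method the 60S ribosomal protein RPL22 carries the HA epitope in cells that expressed Cre, and ribosomes with their bound mRNAs are pulled down through it. In the SC the tag is present in arriving retinal axons, whereas the Cre-negative SC holds no tagged ribosome and measures what the antibody and beads bring down without a tag. In such bulk material, fewer tagged axons and less mRNA per axon cannot be told apart.

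No FPKM table gives the number of mapped reads. From the smallest steps between low FPKM values, the libraries were estimated at 6240000 and 8490000 fragments in Cre-positive SC and 6240000 and 11200000 fragments in Cre-negative SC. At that depth, 3 fragments on a 2 kb transcript correspond to 0.134 to 0.240 FPKM, a floor that covers counting error only. The Cre-negative libraries were as deep by this estimate and listed fewer genes. Above 0 FPKM there were 4620 and 4923 genes in Cre-positive SC and 2162 and 2546 genes in Cre-negative SC. The 10 most abundant genes held 30.9% and 36.3% of the summed FPKM in the Cre-positive libraries and 44.2% and 38.6% in the Cre-negative libraries. Entries that were not a number are left out of these shares, 1 and 2 in the Cre-positive and 0 and 2 in the Cre-negative libraries. The shares therefore do not rest on the same genes in each library. Rpl22, the gene that carries the tag, was listed at 0 in all 4 SC libraries and at 0.496 and 0.461 FPKM in the 2 retina libraries of the same stage, so it gives no check of the Cre labels. A value of exactly 0 can be a failed estimate in these files, since Tubb5, a beta-tubulin present in every cell, was listed at 34558 and 0 FPKM in the 2 retina libraries.

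Replicates of this stage resembled each other closely in which genes were listed above 0. Of the tested genes that reached 10 FPKM in a library, 0.0382% to 0.84% were listed at 0 in the other replicate of its group. Between the groups, 41.4% to 52.8% of the tested genes that reached 10 FPKM in a Cre-positive library were listed at 0 in a Cre-negative library, and 12.5% to 16.9% in the reverse direction. In the SC replicate pairs of the other 3 stages, over all genes in the files, the same share ran from 5.17% to 50.9%, and between the 2 retina libraries of P0.5 it was 0.333% and 0.817%. Values of the replicates still differed by more than counting error. Among genes of at least 100 FPKM in both replicates, the SD of the log2 ratio between replicates was 0.66 over 390 genes in Cre-positive SC and 0.912 over 253 genes in Cre-negative SC, against 0.054 and 0.051 from counting for a 2 kb transcript. Across the 4014 genes, Pearson's r of log2(FPKM + 1) was 0.906 between the Cre-positive libraries, 0.940 between the Cre-negative libraries and 0.280 to 0.399 between groups. The study describes biological replicates and the labels only number them, so the p-values below measure the spread between these 2 libraries per group. The sources used here do not say whether these replicates were immunoprecipitated and amplified separately, and if they shared such a step the p-values do not cover its variation. Which case holds was not tested.

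Most genes were higher in Cre-positive SC. With limma on log2(FPKM + 1), 2381 genes were called higher at an adjusted p of 0.05, which is 59.3% of the genes tested, and 348 genes were called lower, which is 8.67%. The median difference over all 4014 genes was 2.5 on the log2(FPKM + 1) scale. Counted without a model, 2515 genes (62.7%) were at least 1 log2 unit higher in every Cre-positive library than in every Cre-negative library, and 393 genes (9.79%) were at least 1 log2 unit lower. Scaling the libraries by median ratios or by trimmed means moved the median difference to 2.33 or 2.18, and the number of genes called lower rose to 465 or 552. The numbers called changed with single libraries. Without Cre-negative replicate 1 or replicate 2, 743 and 600 genes were called higher, and without Cre-positive replicate 1 or replicate 2, 17 and 19 genes were called lower.

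**Figure D1:**
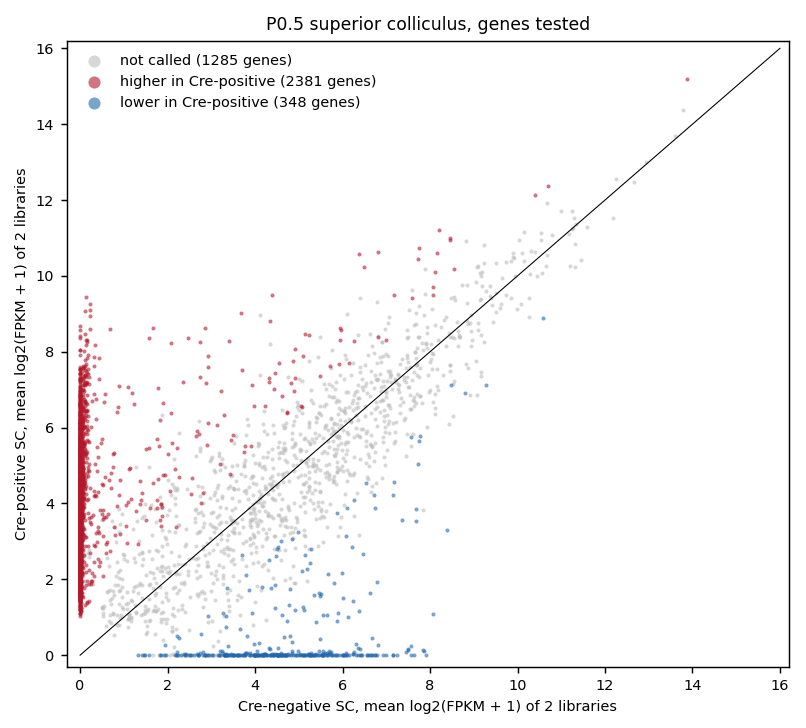
Mean log2(FPKM + 1) of the 2 Cre-positive SC libraries (vertical axis) against the mean of the 2 Cre-negative SC libraries (horizontal axis) for the 4014 genes tested at P0.5, with the line of equality. Called genes lie mostly on the axes, 2381 of them higher (red) and 348 lower (blue), while the 1285 genes not called (grey) follow the line.

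Most called genes were at or near 0 FPKM in 1 group. In 2351 genes (58.6% of those tested) both Cre-positive libraries reached 1 FPKM and neither Cre-negative library did, and 2233 of these were called higher. In the opposite pattern, 302 genes (7.52%) reached 1 FPKM in both Cre-negative libraries and in neither Cre-positive library, and 274 of these were called lower. These classes follow from the measured values, so their calls describe the same contrast and are no further evidence of it. Many of these genes were well above the floor in the group with the higher values, and their 0 in the other group may be a failed estimate. Of the 1076 genes with at least 10 FPKM in both Cre-positive libraries and under 1 FPKM in both Cre-negative libraries, 710 were listed at 0 in both Cre-negative libraries, and of the 164 genes with the opposite pattern 115 were listed at 0 in both Cre-positive libraries.

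The 1110 genes that reached 1 FPKM in all 4 libraries held most of the signal and differed little as a class. They made up 78.5% and 84.2% of the summed FPKM of tested genes in Cre-positive SC and 94.2% and 95.4% in Cre-negative SC. Genes that reached 1 FPKM in both Cre-positive libraries alone made up 20.5% and 14.7% there, and genes that did so in both Cre-negative libraries alone made up 4.72% and 3.58% in the Cre-negative libraries. Within the 1110 genes the median difference was 0.06 on the log2(FPKM + 1) scale, with 113 genes (10.2%) called higher and 50 genes (4.5%) called lower. When these genes were fitted on their own, an alternative chosen after seeing the data, 25 were called higher and 6 lower, and 202 had an unadjusted p under 0.05. Of the 124 named genes in this class, 36 lost their call in that fit. Nefl, Gata2, Sox9, Rps24, Eif3d, Ndufb8, Ndufv3, Pkm, Psmb1, Otub1, Hsp90ab1, Cct5, Tuba1a, Tubb2b, Mapt, Map4, Dbn1, Tmsb10, Brk1, Abi2, Dctn3, Atp6v1e1, Nrxn2, Scn2a1, Sin3b, Sarm1, Aplp1 and Slc25a5 were among these, whereas Tubb3, Rplp1, Rplp2, Rps15, Ndufs7, Uqcrh, Aldoa, Fez1 and Gnas passed in both fits. Differences given below are Cre-positive minus Cre-negative means of log2(FPKM + 1) over 2 libraries per group, and they understate the change of low genes. The ± is the SE of the limma fit. It is moderated over the genes tested, so it is not the SE of the 4 values of a gene alone. In genes with both libraries of a group at 0 the spread behind the test comes from the other group and the moderation alone. For these genes the difference would depend on the added 1 and is left out. The same dependence holds where a group is near 0, and for medians over lists. For Psmb4, described next, the difference was 9.32 with 1 added, 11.99 with 0.1 added and 7.11 with 5 added.

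**Figure D2:**
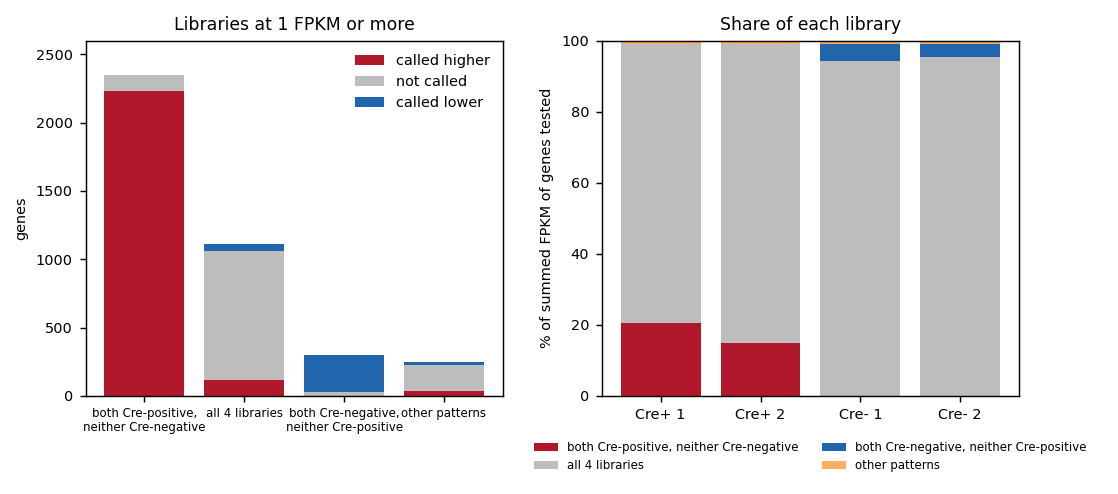
Left, number of genes by the libraries in which they reached 1 FPKM, coloured by call. Right, share of the summed FPKM of the 4014 tested genes in each library; the 2351 genes that reached 1 FPKM in both Cre-positive libraries alone hold 20.5% and 14.7% of the Cre-positive libraries, and the 1110 genes that did so in all 4 hold 78.5% to 95.4%.

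The 10 largest differences toward Cre-positive SC and the 10 in the opposite direction were taken from genes without overlap between groups, so their separation is no result. Psmb4, Psmb5 and Psmb6, beta subunits of the 20S proteasome core, were among the 10 higher in Cre-positive SC. Psmb4 (chr3:94884093-94886961 in mm10) was at 775 and 626 FPKM in Cre-positive SC and 0.192 and 0 FPKM in Cre-negative SC (difference 9.32 ± 0.44, adjusted p = 0.00186). Psmb5 was at 496 and 305 against 0.213 and 0.122 FPKM, and Psmb6 was at 366 and 293 against 0 and 0 FPKM. Ndufb9 and Ndufb7, accessory subunits of respiratory complex I, had 543 and 542 against 0 and 0.180 FPKM and 443 and 326 against 0 and 0 FPKM. The ribosomal protein genes Rps21 (415 and 401 FPKM) and Rpl36 (476 and 247 FPKM) were at 0 in both Cre-negative libraries.

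The other 3 of the 10 genes were Stmn2, Pafah1b3 and Vps28. Stmn2 (chr3:8509360-8561606), a tubulin-binding protein of growth cones, had 587 and 408 FPKM in Cre-positive SC and 0.257 and 0.0976 FPKM in Cre-negative SC (difference 8.71 ± 0.45, adjusted p = 0.00186). Pafah1b3, a catalytic subunit of the platelet-activating factor acetylhydrolase that binds LIS1, had 653 and 572 against 0.214 and 0.123 FPKM. Vps28, a subunit of the ESCRT-I complex that sorts ubiquitinated membrane proteins, had 652 and 468 against 0 and 0.360 FPKM. In each of these genes the lower Cre-positive library was over 400 FPKM and the higher Cre-negative library was under 1 FPKM.

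The largest decreases had the mirror image of this pattern. Uqcr11 (chr10:80402997-80406830), a small subunit of respiratory complex III, was listed at 0 in both Cre-positive libraries and at 196 and 290.1 FPKM in Cre-negative SC (adjusted p = 0.00186). Tomm5, part of the outer membrane import channel of mitochondria, was at 0 and 0.232 against 257 and 127 FPKM. Polr2e, a subunit shared by the nuclear RNA polymerases, was listed at 0 in both Cre-positive libraries and at 308 and 126 FPKM in Cre-negative SC. These 3 encode proteins of mitochondria and of transcription. Slc50a1, a sugar transporter, was listed at 0 against 242 and 148 FPKM. Ifnar2, a chain of the type I interferon receptor, was at 0 and 0.110 against 221 and 139 FPKM, and Ppp1r14a, an inhibitor of myosin phosphatase, was at 0.410 and 0 against 238 and 151 FPKM. The remaining genes of the 10 were D17Wsu104e, Flywch2, Ccdc12 and 2900055J20Rik, each over 100 FPKM in both Cre-negative libraries and under 1 FPKM in both Cre-positive libraries.

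Gene lists are described next by how many tested members were called. A gene could pass the filter through the group where it was high and then had to differ, so these shares depend on the filter and are given as descriptions only. Where a list is said to have members in all 4 libraries, these reached 1 FPKM in each, and 10.2% of all such genes were called higher. Over all genes tested 59.3% were called higher and 8.67% lower.

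For the translation machinery, cytosolic ribosomal protein genes were found among the higher, the lower and the uncalled genes. Of 80 cytosolic ribosomal protein genes in the files, 57 were tested, 35 (61.4%) were called higher, 4 lower and 18 were not called, a share close to the 59.3% of all genes. Their median difference was 3.78, against 2.5 over all genes tested. Their summed FPKM was 14306 and 10328 in Cre-positive SC and 3532 and 2515 in Cre-negative SC. In 26 of these genes all 4 libraries reached 1 FPKM, 8 of them were called higher, and their median difference was 1.67, against 0.06 for all genes of that class. Rplp1, an acidic protein of the ribosomal stalk, had 1853 and 1246 FPKM in Cre-positive SC and 111 and 61.3 FPKM in Cre-negative SC (difference 4.19 ± 0.52, adjusted p = 0.00583). Its partner Rplp2 had 538 and 290.0 against 3.37 and 1.32 FPKM (difference 6.96 ± 0.63, adjusted p = 0.00316). Stalk proteins bind elongation factors.

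Proteins of the small subunit did not all follow. Rps15 was at 1183 and 1246 against 102 and 78.4 FPKM (difference 3.75 ± 0.39, adjusted p = 0.00383). By contrast, Rps3 had 665 and 559 FPKM in Cre-positive SC and 824 and 751 FPKM in Cre-negative SC and was not called (difference -0.37 ± 0.36, adjusted p = 0.428). Rps3 is a small subunit protein near the mRNA entry channel. Rplp0, the base of the stalk, overlapped between groups with 549.6 and 318 against 341 and 113 FPKM and was not called. The 4 genes called lower were Rps4l, Rpl39, Rps24 and Rpl27a. Rps4l, which is annotated as a transcribed processed pseudogene, was at 0 and 0 against 177 and 58.3 FPKM. Rpl39 had 2.67 and 0.939 against 54.8 and 101 FPKM and Rps24 had 5.96 and 3.11 against 20.9 and 66.5 FPKM. Ribosomal protein genes have many processed pseudogenes and near-identical copies, and reads may be split between copies in such genes.

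Mitochondrial ribosomal proteins, which build the ribosome that translates mitochondrial mRNAs, had 26 of 77 genes tested, and 24 of these (92.3%) were called higher with none lower. Of the 26, 23 passed the filter through the Cre-positive libraries alone, so this share is largely set by the filter. Summed over the list they reached 1314 and 1028 FPKM in Cre-positive SC and 39.2 and 28.6 FPKM in Cre-negative SC. Mrpl46 was at 241 and 213 against 0.521 and 0.199 FPKM (difference 7.39 ± 0.41, adjusted p = 0.00186), and Mrpl18 was at 157 and 100.4 FPKM against 0 in both Cre-negative libraries. The 2 genes not called, Mrpl35 and Mrpl15, were the only members that reached 1 FPKM in all 4 libraries, and Mrpl15 had 10.6 and 10.3 against 13.2 and 17.6 FPKM. Of the 33 translation factors tested, 20 (60.6%) were called higher and none lower. Here 18 of the 33 passed the filter through the Cre-positive libraries alone, and 2 of 14 members in all 4 libraries were called higher. Eif3d, a cap-binding subunit of eIF3, was at 629 and 231 against 91.4 and 41.2 FPKM (difference 2.61 ± 0.78, adjusted p = 0.0496), and Eif5a, a factor for elongation through difficult sequences, was at 86.7 and 65.3 FPKM against 0 in both Cre-negative libraries. The abundant Eif4a1, the RNA helicase of initiation, had 1297 and 2479 against 501 and 724 FPKM, without overlap, and missed the threshold (difference 1.57 ± 0.51, adjusted p = 0.0604). Eef1a1, the factor that brings aminoacyl-tRNA to the ribosome, had 745 and 354 against 137 and 33.2 FPKM and also missed it (difference 2.90 ± 0.93, adjusted p = 0.0585).

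Genes for ATP production also passed the filter largely through the Cre-positive libraries alone, in 8 of 11 tested genes of glycolysis, 9 of 12 of the citric acid cycle, 18 of 27 of complex I, 11 of 22 of complexes II to IV and 7 of 10 of ATP synthase. Of members in all 4 libraries, 2 of 3, 0 of 3, 3 of 7, 2 of 8 and 1 of 2 were called higher in these lists. Over all tested members, for glycolysis 10 of 11 genes tested (90.9%) were called higher, for the citric acid cycle 9 of 12 (75%), for respiratory complex I 21 of 27 (77.8%), for complexes II to IV with cytochrome c 13 of 22 (59.1%) and for ATP synthase 9 of 10 (90%). The summed FPKM of the ATP synthase genes was 1814 and 1143 in Cre-positive SC and 81.2 and 63.8 in Cre-negative SC. Atp5d, the delta subunit of the F1 part, was at 397 and 382 against 0.196 and 1.13 FPKM (difference 7.93 ± 0.50, adjusted p = 0.00207). Atp5a1, the alpha subunit, had 313 and 149 against 59.8 and 22.4 FPKM and was just short of the threshold (difference 2.53 ± 0.76, adjusted p = 0.0506). In glycolysis, Ldhb, a lactate dehydrogenase chain, was at 163 and 118 FPKM against 0 in both Cre-negative libraries. Aldoa, the aldolase of muscle and most other tissues, was at 149.9 and 115 against 2.19 and 2.70 FPKM (difference 5.27 ± 0.43, adjusted p = 0.00241), and Pkm, pyruvate kinase, was at 217 and 95.7 against 21.6 and 34 FPKM (difference 2.37 ± 0.65, adjusted p = 0.0392). Hk2, a hexokinase, overlapped between groups with 16.8 and 3.67 against 20.1 and 3.10 FPKM.

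Subunits of the same respiratory complex went in both directions. In complex I, Ndufb8 was at 766 and 684 against 285 and 254 FPKM (difference 1.43 ± 0.37, adjusted p = 0.0321) and Ndufs7 was at 374 and 285 against 12 and 1.32 FPKM (difference 5.90 ± 1.02, adjusted p = 0.0123). Ndufs5, another subunit, was listed at 0 in both Cre-positive libraries and at 141 and 72.5 FPKM in Cre-negative SC (adjusted p = 0.00219), and Ndufv3 was at 136 and 139 against 378 and 333 FPKM. These subunits are assembled in fixed proportion in the complex. In complex IV, Cox6b1 was at 137 and 169 FPKM against 0 in both Cre-negative libraries, and Cox5a was at 0 in both Cre-positive libraries against 114 and 76.6 FPKM. Cox6a1 overlapped between groups, with 355 and 278 against 349.9 and 240.1 FPKM (difference 0.12 ± 0.44, adjusted p = 0.843). In complex III, Uqcrq had 158 and 86.9 FPKM against 0, while Uqcrh had 13.4 and 8.29 against 222 and 189 FPKM (difference -4.15 ± 0.49, adjusted p = 0.00489). In the citric acid cycle, Mdh2, mitochondrial malate dehydrogenase, was at 95.5 and 95.4 against 0 and 0.0765 FPKM, and Suclg1, a subunit of succinyl-CoA ligase, was at 5.88 and 14.5 against 109 and 32.8 FPKM and not called (difference -2.56 ± 0.86, adjusted p = 0.0663).

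Mitochondrial import and dynamics was more mixed, with 8 of 18 genes (44.4%) called higher and 3 lower. Of the 18, 8 passed the filter through the Cre-positive libraries alone and 2 through the Cre-negative libraries alone. Of 8 members in all 4 libraries 0 were called higher and 1 lower. Timm13, a chaperone of the intermembrane space, was at 175 and 187 against 0 and 0.161 FPKM, and Tomm22, a receptor of the outer membrane translocase, was at 51.8 and 56.3 FPKM against 0 in both Cre-negative libraries. Slc25a5, an ADP/ATP carrier, was called lower with 32.6 and 15.8 against 228 and 91.4 FPKM (difference -2.61 ± 0.74, adjusted p = 0.0431), as was Chchd7, with 0 in both Cre-positive libraries against 33.7 and 15.4 FPKM.

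Protein turnover and folding had shares of higher calls of 62.2% to 73.5%. Of 34 proteasome genes tested 25 (73.5%) were called higher and 2 lower, and their median difference was 5.02. Of the 34, 25 passed the filter through the Cre-positive libraries alone. Of the 7 members in all 4 libraries 1 was called higher and 1 lower, with a median difference of 0.03. Psmb3, a beta subunit, was at 329 and 208 FPKM against 0 in both Cre-negative libraries. Psmb1, which sits in the same ring of the core particle, was called lower with 46.5 and 21.6 against 290.1 and 153 FPKM (difference -2.69 ± 0.66, adjusted p = 0.0307). Psmc6, an ATPase of the regulatory particle, was listed at 0 in both Cre-positive libraries and at 99.9 and 16.1 FPKM in Cre-negative SC, whereas the ATPases Psmc1 and Psmc4 overlapped between groups. Among ubiquitin enzymes 23 of 37 (62.2%) were called higher and 1 lower. Here 24 of the 37 passed the filter through the Cre-positive libraries alone, and 1 of 10 members in all 4 libraries was called higher. Otub1, a deubiquitinase and among the most abundant genes of all 4 libraries, had 31641 and 44392 against 16090.3 and 14233 FPKM (difference 1.31 ± 0.29, adjusted p = 0.0240). Uchl3, a ubiquitin hydrolase, was at 66.5 and 33.4 FPKM against 0 in both Cre-negative libraries, and Cul2, a cullin scaffold, was at 0 in both Cre-positive libraries against 63.9 and 19.2 FPKM.

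For chaperones 25 of 35 genes tested (71.4%) were called higher and 2 lower. Of the 35, 24 passed the filter through the Cre-positive libraries alone, and 2 of 7 members in all 4 libraries were called higher. Hsp90ab1, the constitutive cytosolic HSP90, had 470.1 and 329.9 against 101 and 36.2 FPKM (difference 2.68 ± 0.69, adjusted p = 0.0344). Subunits of the CCT chaperonin, which folds actin and tubulin, differed in size of effect. Cct5 was at 217 and 113 against 32.5 and 26.4 FPKM (difference 2.38 ± 0.55, adjusted p = 0.0258), while Cct3 was at 194 and 109 and Cct7 at 129 and 57 FPKM with both at 0 in both Cre-negative libraries. The abundant Dnajc18 had 2019 and 837 against 1474 and 355 FPKM and was not called.

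**Figure D3:**
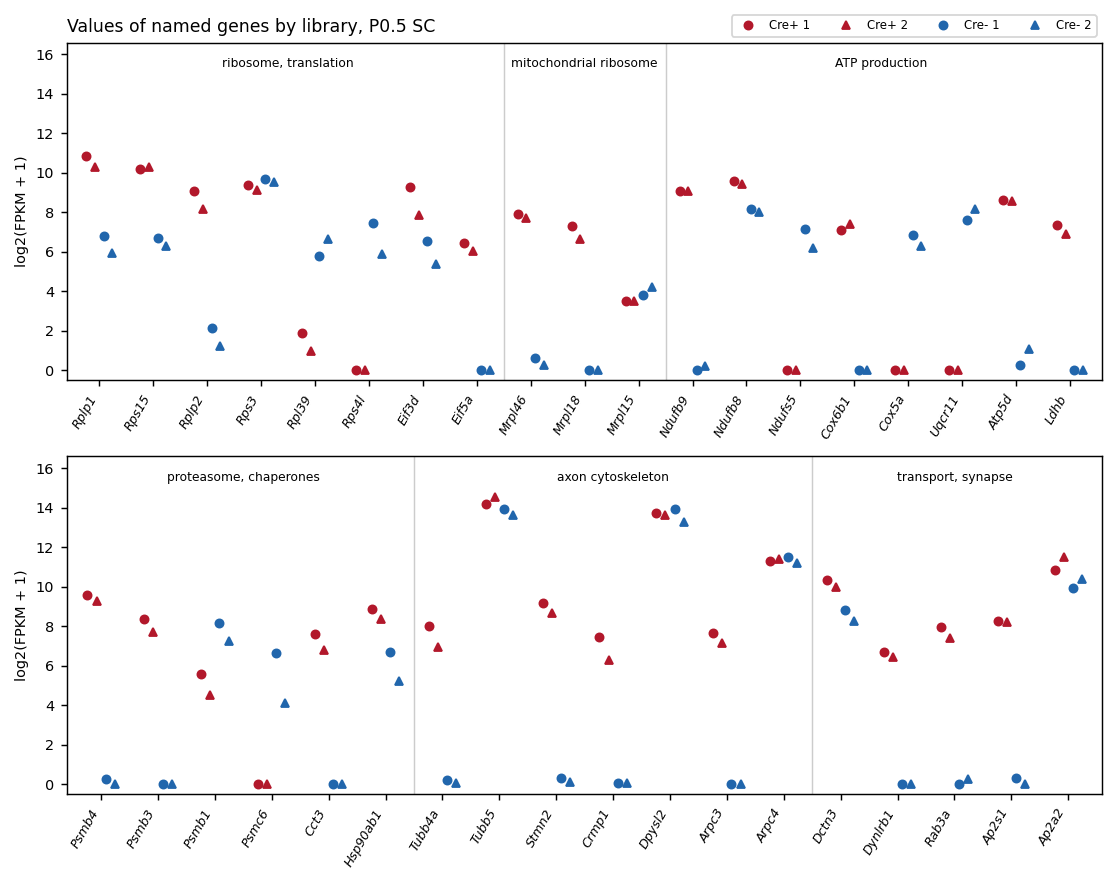
Values of log2(FPKM + 1) in each library for named genes, with Cre-positive SC in red, Cre-negative SC in blue, replicate 1 as circles and replicate 2 as triangles. Members of the same complex take opposite positions, such as Psmb4 and Psmc6 in the proteasome or Cox6b1 and Cox5a in complex IV, while Tubb5, Dpysl2 and Arpc4 are high in all 4 libraries.

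Of the tubulins, 8 of 13 genes tested (61.5%) were called higher and 1 lower. Of the 13, 5 passed the filter through the Cre-positive libraries alone, and 3 of 7 members in all 4 libraries were called higher. Tubb3, the neuronal beta-tubulin, had 3059 and 1804 FPKM in Cre-positive SC and 421 and 204 FPKM in Cre-negative SC (difference 3.0 ± 0.58, adjusted p = 0.0165). Tuba1a and Tubb2b, tubulins of developing neurons, had 1381 and 862 against 388 and 193 FPKM (difference 1.99 ± 0.57, adjusted p = 0.0437) and 893 and 575 against 221 and 94.7 FPKM (difference 2.30 ± 0.62, adjusted p = 0.0388). Tubb4a was at 257 and 123 against 0.144 and 0.0411 FPKM. All of these were higher in each Cre-positive library than in either Cre-negative library. Tubb5 had the highest level of the family, with 18521 and 24063 against 15482 and 12716 FPKM, and was not called (difference 0.59 ± 0.29, adjusted p = 0.155). Tuba4a was called lower, with 0 in both Cre-positive libraries against 27.3 and 18.6 FPKM.

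Growth cone, microtubule-associated and neurofilament genes had 16 of 30 called higher (53.3%) and 1 lower, below the share of all genes. Of the 30, 16 were in all 4 libraries, and 3 of these were called higher and 1 lower. Besides Stmn2, the kinesin adaptor Fez1 was at 759 and 348 against 28.4 and 4.66 FPKM (difference 5.32 ± 1.06, adjusted p = 0.0178) and Mapt, which encodes the axonal microtubule protein tau, was at 211 and 119 against 34.7 and 10.3 FPKM (difference 2.99 ± 0.80, adjusted p = 0.0382). Crmp1, a collapsin response mediator in semaphorin signalling, was at 177 and 76.4 against 0.0530 and 0.0301 FPKM. Its relative Dpysl2, also known as CRMP2, was among the most abundant genes in all 4 libraries and was not called, with 13552 and 12634 against 15490.0 and 9810.1 FPKM (difference 0.09 ± 0.34, adjusted p = 0.853). Stmn3, a relative of Stmn2, did not overlap between groups and was not called either, with 942 and 796 against 686 and 307 FPKM (difference 0.91 ± 0.55, adjusted p = 0.228). Gap43, a growth cone protein of RGC axons at this age, was chosen after its values were seen. It had 211 and 135 against 182 and 130.2 FPKM, overlapped between groups and was not called (difference 0.13 ± 0.49, adjusted p = 0.842). Map4, a microtubule-associated protein of non-neuronal cells, was the gene called lower, with 4.72 and 1.26 against 31.3 and 13.7 FPKM.

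Genes of the actin cytoskeleton were called higher in 11 of 33 (33.3%), against 59.3% of all genes, and 5 were called lower. This share depends on the filter as well, since 18 of the 33 were in all 4 libraries, against 27.7% of all genes tested. Of these 18, 2 were called higher and 2 lower, beside 10.2% and 4.5% of all such genes. Dbn1, the actin-binding protein drebrin, was at 2508 and 1676 against 439.8 and 283 FPKM (difference 2.54 ± 0.46, adjusted p = 0.0136), and the actin-sequestering Tmsb10 was at 111 and 140.4 against 29 and 28.1 FPKM (difference 2.09 ± 0.44, adjusted p = 0.0191). The ARP2/3 complex, which nucleates branched actin, contained all 3 outcomes. Arpc3 was at 204 and 143 FPKM against 0 in both Cre-negative libraries, and Arpc5l was at 72.6 and 56.4 FPKM against 0. Arpc5 was at 0 in both Cre-positive libraries against 121 and 13.3 FPKM. Arpc4 and Actr2 were abundant in every library, at 2559 and 2760.5 against 2873 and 2341 FPKM and at 1203 and 1207 against 3083 and 2073 FPKM, and neither was called. The WAVE complex members Brk1, Abi2 and Cyfip2, which activate ARP2/3, were called lower, Cyfip2 with 0 and 0.251 against 22.8 and 16.4 FPKM (difference -4.18 ± 0.35, adjusted p = 0.00271) and Brk1 with 18.6 and 8.18 against 59.3 and 55.2 FPKM (difference -2.12 ± 0.57, adjusted p = 0.0386).

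For motors, 18 of 27 kinesin, dynein and dynactin genes tested (66.7%) were called higher and none lower. Of the 27, 15 passed the filter through the Cre-positive libraries alone, and 2 of 8 members in all 4 libraries were called higher. Dctn3, Dctn5 and Dctn6, subunits of the dynactin complex that serves retrograde transport, were called higher. Dctn3 was at 1318 and 1032 against 453 and 311 FPKM (difference 1.63 ± 0.41, adjusted p = 0.0318) and Dctn5 was at 153 and 131 against 0 and 0.125 FPKM. Dynlrb1, a light chain of dynein, was at 101 and 85.8 FPKM against 0 in both Cre-negative libraries. Dctn4 and the kinesin Kif1b, which carries synaptic vesicle precursors and mitochondria, were not called. Kif1b had 132 and 84.7 against 262 and 146 FPKM (difference -0.88 ± 0.55, adjusted p = 0.243).

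Genes of the synaptic vesicle cycle had 25 of 36 called higher (69.4%) and none lower. Of the 36, 23 passed the filter through the Cre-positive libraries alone, and 1 of 9 members in all 4 libraries was called higher. Rab3a, the vesicle GTPase of regulated release, was at 249.6 and 167 against 0 and 0.199 FPKM (difference 7.55 ± 0.43, adjusted p = 0.00188). Ap2s1, a subunit of the clathrin adaptor AP-2, was at 311 and 295 against 0.238 and 0 FPKM, while the AP-2 subunit Ap2a2 was abundant in both groups, with 1822 and 2894 against 973 and 1338 FPKM, and not called (difference 1.01 ± 0.43, adjusted p = 0.112). Snap25, a SNARE protein of the nerve terminal, was chosen after its values were seen and was at 30.2 and 34.1 against 0.152 and 0.390 FPKM (difference 4.71 ± 0.30, adjusted p = 0.00206). Syt4, a synaptotagmin, was higher in every Cre-negative library than in either Cre-positive library, with 201 and 64.5 against 1027 and 285 FPKM, and was not called (difference -2.24 ± 0.99, adjusted p = 0.123).

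Of 19 Rab GTPases tested 10 (52.6%) were called higher and 1 lower, and of 14 vacuolar ATPase genes 9 (64.3%) were called higher and 2 lower. In these lists 9 and 9 genes passed the filter through the Cre-positive libraries alone. Of members in all 4 libraries, 1 of 7 and 1 of 4 were called higher, and 0 and 2 lower. Atp6v1f, a subunit of the peripheral V1 part of the proton pump, was at 378 and 261 against 0 and 0.187 FPKM (difference 8.18 ± 0.44, adjusted p = 0.00186), while Atp6v1e1 of the same part was at 26.1 and 18.8 against 111 and 77.2 FPKM (difference -2.01 ± 0.49, adjusted p = 0.0283). Rab18, a GTPase of the endoplasmic reticulum and lipid droplets, was called lower with 0.418 and 0.0948 against 26.1 and 9.60 FPKM. In the ER and Golgi 19 of 36 genes (52.8%) were called higher and 1 lower. Here 21 of the 36 passed the filter through the Cre-positive libraries alone, and 0 of 13 members in all 4 libraries were called higher. Arf1, a GTPase of Golgi coat assembly, was at 229.5 and 49.4 against 0 and 0.676 FPKM (difference 6.38 ± 0.92, adjusted p = 0.00793), and Arf5 overlapped between groups with 478 and 269.7 against 481 and 245 FPKM. Among sodium-potassium ATPases, the beta subunit Atp1b1 was at 54.4 and 65.1 against 55.6 and 54.1 FPKM. In this small family 2 of 4 genes tested (50%) were called higher and none lower.

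Of 75 axon guidance genes 23 were tested, and 15 of these (65.2%) were called higher with none lower. Here 14 of the 23 passed the filter through the Cre-positive libraries alone. Of the 6 members in all 4 libraries 0 were called higher, with a median difference of -0.78. Ephb2, a receptor for ephrin-B ligands in retinotopic mapping, was at 12.4 and 6.61 FPKM against 0 in both Cre-negative libraries (adjusted p = 0.00630). Plxnb2, a plexin receptor for class 4 semaphorins, was at 30.5 and 23.1 FPKM against 0 (adjusted p = 0.00207), and Sema6a, a transmembrane semaphorin, was at 14.9 and 9.34 against 0 and 0.0125 FPKM. The ligand Efna5, a repellent for RGC axons in the SC, was the most abundant of the list and was not called, with 260.0 and 105 against 611 and 162 FPKM (difference -0.93 ± 0.93, adjusted p = 0.447). Sema4b was not called either. Adhesion molecules had 9 of 16 called higher (56.3%) and none lower. Of the 16, 7 passed the filter through the Cre-positive libraries alone, and 1 of 6 members in all 4 libraries was called higher. Nrxn2, a presynaptic neurexin, was at 15.6 and 23.5 against 2.66 and 3.75 FPKM (difference 2.27 ± 0.38, adjusted p = 0.0111) and Chl1, a relative of L1, was at 14 and 10.7 against 0.488 and 0.610 FPKM. Ncam1 was far more abundant, with 2843 and 1697 against 3639 and 1483 FPKM, and overlapped between groups (difference -0.08 ± 0.63, adjusted p = 0.926).

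Ion channels had the highest share of lower calls among the lists of at least 10 tested genes, with 7 of 18 (38.9%) called higher and 4 called lower. Of the 18, 8 passed the filter through the Cre-positive libraries alone and 4 through the Cre-negative libraries alone. Of 6 members in all 4 libraries 0 were called higher and 1 lower. The potassium channel gene Kcna6 was at 36.2 and 15.9 against 0 and 0.0148 FPKM, and Cacng3, an AMPA receptor auxiliary subunit of the calcium channel gamma family, was at 26.6 and 28.1 FPKM against 0. Kcns1, a modulatory potassium channel subunit, went the opposite way with 0.0576 and 0 against 41.3 and 49.9 FPKM (difference -5.50 ± 0.30, adjusted p = 0.00186). Cacna1c, an L-type calcium channel subunit, was at 0 and 0.0178 against 28 and 17 FPKM, and Scn2a1, a sodium channel alpha subunit, was at 1.94 and 2.63 against 14.7 and 12.5 FPKM (difference -2.16 ± 0.31, adjusted p = 0.00726). Transmitter receptors had 7 of 12 called higher (58.3%) and 1 lower. Of the 12, 8 passed the filter through the Cre-positive libraries alone and 1 through the Cre-negative libraries alone. Of 2 members in all 4 libraries 0 were called higher. Grin1, the obligatory subunit of NMDA receptors, was at 12.1 and 12.8 FPKM against 0 in both Cre-negative libraries, and the nicotinic subunits Chrna3 and Chrna6, which RGCs use, were at 7.38 and 3.37 and at 10.5 and 2.39 FPKM against 0. Grin2b, another NMDA receptor subunit, had 157 and 51.2 against 560.4 and 135 FPKM and was not called (difference -1.61 ± 1.04, adjusted p = 0.254). Gabrb2, a GABA-A receptor subunit, was the gene called lower.

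Heterotrimeric G proteins had 10 of 14 called higher (71.4%) and 1 lower, and 14-3-3 and calmodulin genes had 6 of 18 (33.3%) and none lower. Of the 14 G protein genes 9 passed the filter through the Cre-positive libraries alone, and 1 of 4 members in all 4 libraries was called higher. Of the 18 genes in the other list 13 were in all 4 libraries, and 1 of these was called higher. Gnas, the stimulatory alpha subunit, was at 549 and 359.9 against 34.1 and 10.5 FPKM (difference 4.47 ± 0.76, adjusted p = 0.0116), and Gnao1, the abundant alpha subunit of neurons, was at 50.5 and 40.2 against 0 and 0.0304 FPKM. Gng7, a gamma subunit, was called lower with 0 in both Cre-positive libraries against 41.1 and 13.3 FPKM. Gnb1, the most abundant gene of Cre-negative replicate 2 at 22718 FPKM, was not among the genes tested, so the counts leave it out. The G protein list summed to 3406 and 1436 FPKM in Cre-positive SC and to 36297 and 22988 FPKM in Cre-negative SC. Sums skip entries that were not a number, so these sums may not compare the same genes. Calm2, a gene for the calcium sensor calmodulin, was at 83.2 and 28.9 against 0.285 and 0 FPKM. The 14-3-3 genes Ywhae and Ywhaz were abundant in all 4 libraries and were not called, Ywhae with 1666 and 2839 against 1584 and 2002 FPKM, while their relative Ywhaq was at 63.7 and 14.2 FPKM against 0 in both Cre-negative libraries.

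Nuclear and RNA-binding proteins had shares of higher calls of 52.3% to 58.3%. RNA-binding proteins had 21 of 40 called higher (52.5%) and 3 lower, chromatin regulators 23 of 44 (52.3%) and none lower, and histones and high-mobility group proteins 7 of 12 (58.3%) and none lower. In these lists 19, 27 and 7 genes passed the filter through the Cre-positive libraries alone. Of members in all 4 libraries, 2 of 12, 2 of 12 and 0 of 5 were called higher. Snrpd2 and Snrpd3, Sm proteins of the spliceosome, were at 99.9 and 94.1 and at 95 and 108 FPKM against 0 in both Cre-negative libraries. Snrpa, the U1 protein A, was called lower with 0 against 41.8 and 16.7 FPKM, as was Fxr1, a relative of FMRP, with 0 against 82.6 and 25 FPKM. Sin3b, a corepressor scaffold, was at 372 and 274 against 51 and 72 FPKM (difference 2.38 ± 0.46, adjusted p = 0.0159). The histone demethylases Kdm5b and Kdm6b overlapped between groups, Kdm5b with 449 and 439.7 against 554 and 378 FPKM (difference -0.04 ± 0.41, adjusted p = 0.939) and Kdm6b with 297 and 381 against 343 and 353 FPKM (difference -0.05 ± 0.39, adjusted p = 0.929). Hist3h2a, a histone H2A gene, was at 236 and 146 FPKM against 0 in both Cre-negative libraries.

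The mTOR pathway, a regulator of translation in axons, had 8 of 26 genes tested, with 4 (50%) called higher and 1 lower, against 59.3% and 8.67% of all genes. Of the 8, 6 passed the filter through the Cre-positive libraries alone and 1 through the Cre-negative libraries alone. None reached 1 FPKM in all 4, so these calls are largely set by the filter. Akt1s1, the mTORC1 inhibitor PRAS40, was at 82 and 52.2 against 0.144 and 0.0825 FPKM (difference 5.90 ± 0.37, adjusted p = 0.00207), and Tsc2, an upstream inhibitor, was at 24.7 and 24.5 against 0.0248 and 0 FPKM. Pik3r1, the regulatory subunit of phosphoinositide 3-kinase, was called lower with 0 and 0.0196 against 27.8 and 4.04 FPKM (difference -3.58 ± 0.98, adjusted p = 0.0402). Of genes for axon degeneration and survival 6 of 9 (66.7%) were called higher and none lower. Here 5 of the 9 passed the filter through the Cre-positive libraries alone, and 1 of 4 members in all 4 libraries was called higher. The proapoptotic Bax was at 174 and 163 FPKM against 0 in both Cre-negative libraries (adjusted p = 0.00186), and the initiator caspase Casp9 was at 12.3 and 10.9 against 0 and 0.0233 FPKM. Sarm1, an NAD-consuming trigger of axon degeneration, was at 79.9 and 36.6 against 4.74 and 5.82 FPKM (difference 3.14 ± 0.57, adjusted p = 0.0136). The survival gene Bcl2l1 had 2563 and 823 against 1971 and 453 FPKM, which overlapped, and was not called (difference 0.62 ± 1.04, adjusted p = 0.650). Nmnat2, the labile axon survival factor, was at 44.1 and 18.5 against 14.6 and 3.42 FPKM, did not overlap and was not called (difference 1.84 ± 0.89, adjusted p = 0.149). Genes linked to neurodegeneration had 12 of 19 called higher (63.2%) and none lower. Of the 19, 10 passed the filter through the Cre-positive libraries alone, and 2 of 8 members in all 4 libraries were called higher. Grn, which encodes progranulin, was at 117 and 36.2 against 0.0686 and 0 FPKM, Aplp1, of the amyloid precursor family, was at 78.8 and 55.5 against 11.2 and 5.21 FPKM (difference 2.95 ± 0.57, adjusted p = 0.0163), and the superoxide dismutase Sod1 was at 1355 and 1099 against 599 and 492 FPKM and just missed the threshold (difference 1.17 ± 0.37, adjusted p = 0.0535).

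**Figure D4:**
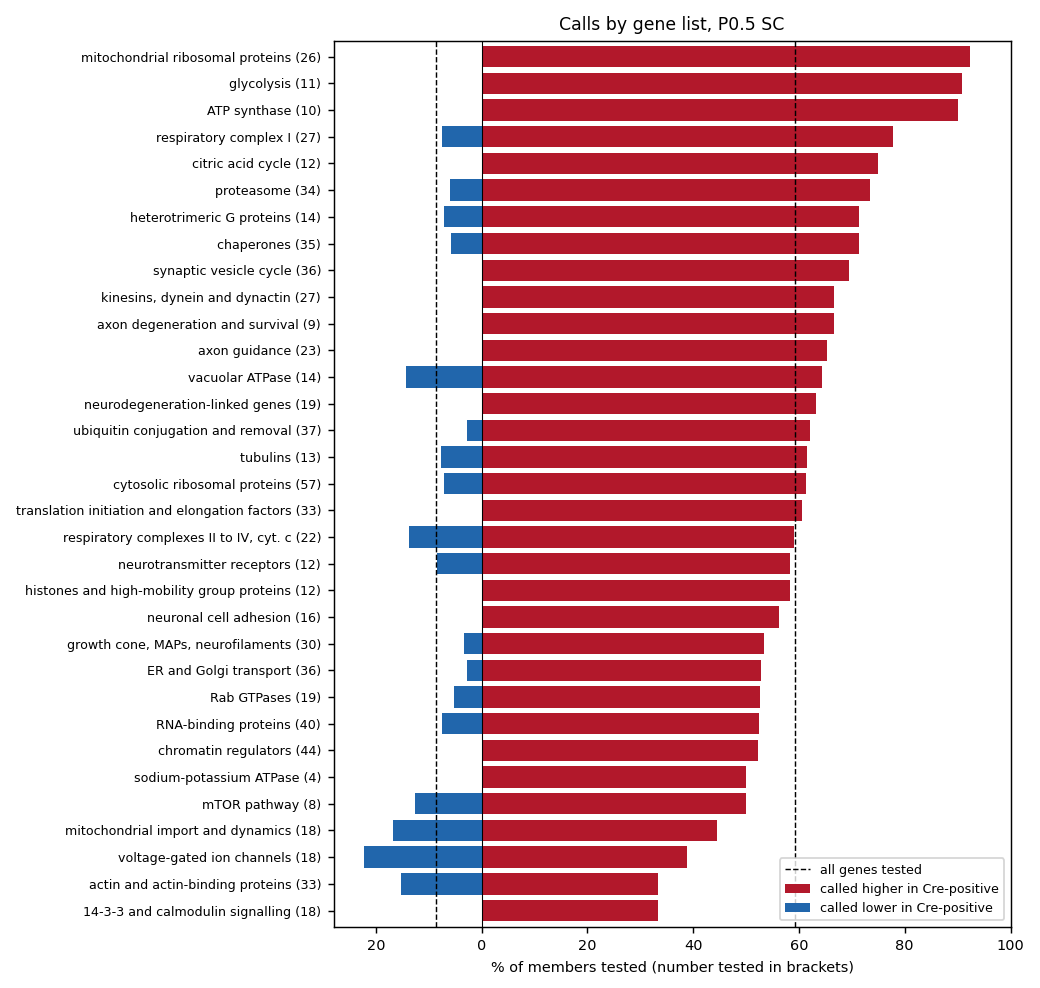
Share of the tested members of each list that was called higher (red, to the right) or lower (blue, to the left), with dashed lines at the shares of all genes tested, 59.3% and 8.67%. Mitochondrial ribosomal proteins, glycolysis and ATP synthase stand at 90% or more, shares that the filter largely sets, and actin genes and the 14-3-3 and calmodulin list stand at 33.3%. The shares at 33.3% depend on detection too, since 18 of 33 and 13 of 18 tested members reached 1 FPKM in all 4 libraries. Of all genes that did so 10.2% were called higher.

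Markers of the cells that the SC could contribute were examined in the same way. Of 16 RGC markers 7 were tested and 4 were called higher with none lower. These were Tubb3, Nefl (47.5 and 18 against 4.22 and 2.82 FPKM), a neurofilament subunit, Slc17a6 (12.2 and 5.13 against 1.46 and 0.223 FPKM), the vesicular glutamate transporter of RGCs, and Ebf3 (11.7 and 6.91 FPKM against 0). These 4 genes are also used by neurons of the midbrain. Of the 7 tested, 1 passed the filter through the Cre-positive libraries alone, and 2 of 5 members in all 4 libraries were called higher. The share called higher, 57.1%, was close to the 59.3% of all genes. The BRN3 transcription factors of RGCs, which neurons of the SC express as well, were not called. Pou4f1 (BRN3A) had 231 and 86 against 705 and 191 FPKM (difference -1.38 ± 0.95, adjusted p = 0.281) and Pou4f2 (BRN3B) had 10 and 1.56 against 48.2 and 5.82 FPKM (difference -1.78 ± 1.35, adjusted p = 0.321). For Pou4f1 and Pou4f2, each Cre-positive library was lower than the Cre-negative library of the same replicate number. The fit did not use that number, which the labels do not tie to a litter. The RGC markers Sncg and Isl2 were listed at 0 in all 4 libraries. Summed over the list, RGC markers ranged from 1977 to 3634 FPKM in Cre-positive SC and from 432 to 1347 FPKM in Cre-negative SC. Tubb3 alone made up 3059 and 1804 FPKM of the Cre-positive sums and 421 and 204 FPKM of the Cre-negative sums. The higher sum in Cre-positive SC therefore rests on this gene and does not stand for the list. Of 22 markers of other retinal neurons 2 were tested. Slc6a9, the glycine transporter, was called higher at 4.86 and 4.10 against 0 and 0.0272 FPKM, and Tfap2b, a factor of amacrine cells, overlapped with 201 and 83.8 against 178 and 61.4 FPKM. The 15 lens crystallins had no tested gene and summed to at most 2.47 FPKM in any SC library, against 905 to 1018 FPKM in the retina libraries.

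Genes of resident SC cells were present in both groups. Of 14 midbrain markers 5 were tested, with 2 called higher and 1 lower. Of the 5, 2 passed the filter through the Cre-positive libraries alone. Of 3 members in all 4 libraries 0 were called higher and 1 lower. Pax7, a tectal transcription factor, was at 6.23 and 7.45 FPKM and Meis2 at 6.34 and 2.49 FPKM, both at 0 in the Cre-negative libraries. Gata2, which specifies midbrain GABAergic neurons, was at 5.71 and 2.23 against 60.2 and 17.6 FPKM (difference -2.86 ± 0.82, adjusted p = 0.0447), and its relative Gata3 was at 531 and 176 against 1134 and 316 FPKM and not called. Gad1 was listed at 0 in all 4 libraries. The list summed to 215 and 646 FPKM in Cre-positive SC and to 346 and 1251 FPKM in Cre-negative SC.

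Glial markers likewise went in both directions. Of 16 genes of astrocytes and radial glia 11 were tested, 4 were called higher and 2 lower, and the sums were 1441 to 2009 FPKM in Cre-positive SC and 1355 to 2235 FPKM in Cre-negative SC. Of the 11, 5 passed the filter through the Cre-positive libraries alone and 1 through the Cre-negative libraries alone. Of 4 members in all 4 libraries 0 were called higher and 1 lower. Vim, the intermediate filament vimentin, was at 97.5 and 19.5 FPKM against 0, Nes, which encodes nestin, was at 28.8 and 14.7 against 0.0249 and 0 FPKM, and Aldh1l1, an astrocyte enzyme, was at 19.9 and 18.2 against 0 and 0.0289 FPKM. Dbi, a carrier of acyl-CoA, was at 0 against 206 and 46.5 FPKM and Sox9, a glial transcription factor, was at 44.7 and 62.6 against 151 and 235 FPKM (difference -1.81 ± 0.50, adjusted p = 0.0397). The abundant Apoe and Fabp7 were not called, Apoe at 1549 and 1145 against 1575 and 813 FPKM and Fabp7 at 228 and 152 against 297 and 234 FPKM. Gfap was listed at 0 in all 4 libraries. In the oligodendrocyte lineage 3 of 12 genes were tested and Sox10 (16.7 and 4.57 FPKM against 0) was called higher, while Cnp was at 84.7 and 86.6 against 86.2 and 48.1 FPKM; the sums were 92.6 and 109 FPKM in Cre-positive SC and 49.6 and 89.2 FPKM in Cre-negative SC. For microglia 1 of 12 genes was tested, the complement gene C1qa, which was called lower with 0 against 77 and 43.2 FPKM. Since these markers moved with the Cre label in single genes, their part in the calls of other genes was not tested.

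Blood, vessel and cell cycle markers completed the lists. Of 11 erythroid genes 4 were tested and none was called; they summed to 134 and 168 FPKM in Cre-positive SC and 110 and 165 FPKM in Cre-negative SC. Hbb-bs and Hbb-b1 are near-identical beta-globin genes among which reads can be split. Hbb-bs had 0.0347 and 136 FPKM in Cre-positive SC and 0.0133 and 118 FPKM in Cre-negative SC. Hbb-b1 had 125 and 0.0164 FPKM in Cre-positive SC and 87.1 and 0 FPKM in Cre-negative SC. In both groups Hbb-b1 was thus the higher gene in replicate 1 and Hbb-bs in replicate 2, and the cause was not tested. Vessel and meningeal markers had 5 of 16 genes tested, with Sparc (17.4 and 7.39 against 0 and 0.0342 FPKM), a matrix protein, called higher. Cldn5, the endothelial tight junction protein, was at 60.9 and 27.9 against 82.6 and 46.5 FPKM and not called, and the list summed to 174 and 321 FPKM in Cre-positive SC and 162 and 330 FPKM in Cre-negative SC. Of 34 cell cycle genes 8 were tested, with 5 called higher and 1 lower, and the sums were 463 and 523 FPKM in Cre-positive SC against 46.4 and 51.4 FPKM in Cre-negative SC. The share called higher, 62.5%, was close to the 59.3% of all genes. Of the 8, 5 passed the filter through the Cre-positive libraries alone and 1 through the Cre-negative libraries alone. Of 2 members in all 4 libraries 0 were called higher and 0 lower. Ccnd1, cyclin D1, was at 153 and 164 against 0 and 0.0232 FPKM (difference 7.30 ± 0.34, adjusted p = 0.00186), Mcm6, a helicase subunit of replication, was at 16.1 and 19 FPKM against 0 and Stmn1, which is also a neuronal gene, was at 116 and 91.2 against 0.335 and 0.0960 FPKM. Top2a, a topoisomerase of dividing cells, was at 0 against 12.9 and 4.78 FPKM. The part of the cell cycle genes in the result was not tested.

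**Figure D5:**
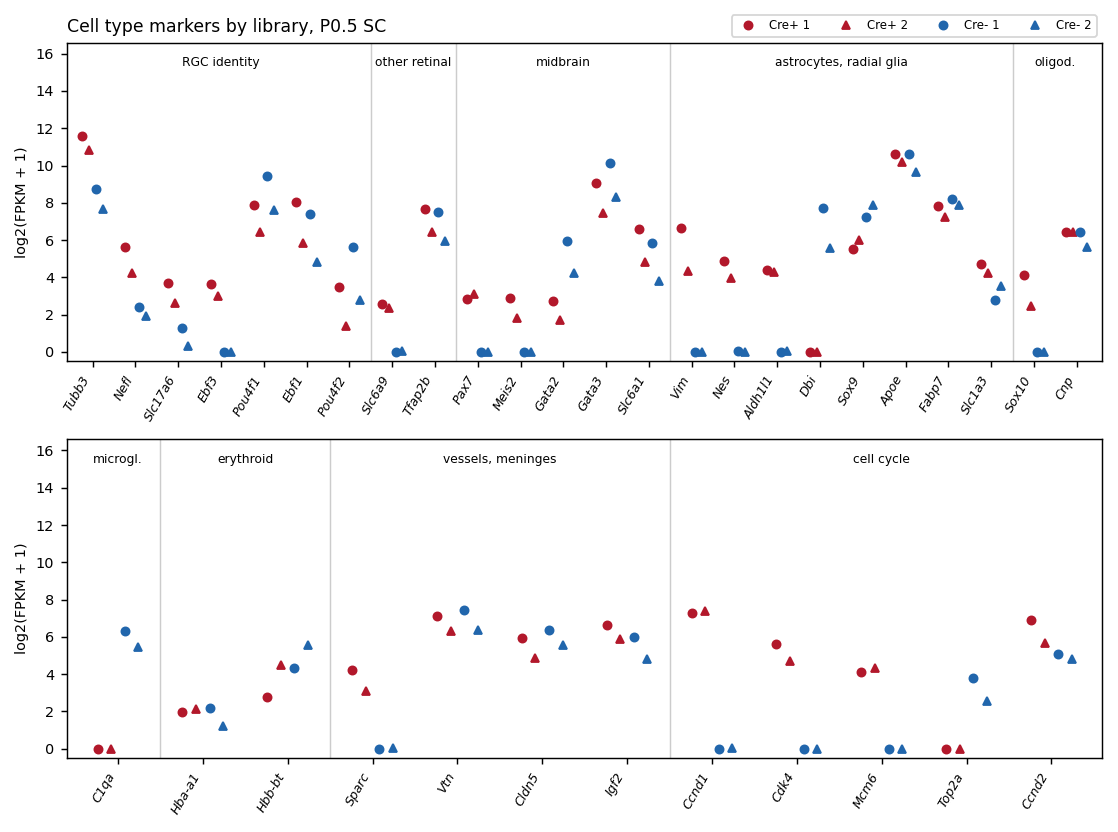
Values of log2(FPKM + 1) in each library for cell type markers above 0, with Cre-positive SC in red, Cre-negative SC in blue, replicate 1 as circles and replicate 2 as triangles. In most lists some markers are at 0 in both libraries of a single group, such as Vim, Sox10 or Mcm6 in Cre-negative SC and Dbi, C1qa or Top2a in Cre-positive SC, while Apoe, Cnp and Vtn lie in the same range in both groups.

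The retina libraries of the same stage hold the ribosome-bound mRNAs of the cell bodies and were not used in the contrast. Most tested genes stayed under 1 FPKM in at least 1 of the 2 retina libraries, whether they were called higher or lower. Over all genes tested, 80.4% were above 0 FPKM in both retina libraries and 28.7% reached 1 FPKM in both. Of the 2381 genes called higher, 1804 (75.8%) were above 0 FPKM in both retina libraries and 417 (18%) reached 1 FPKM in both. For the 348 genes called lower the shares were 75.3% and 18.4%. For the 1285 genes not called they were 90.3% and 52.3%. Among the largest increases, Psmb4 was at 11.8 and 11.8 FPKM in retina, Ndufb9 at 3.24 and 7.41 FPKM and Stmn2 at 1.46 and 0.684 FPKM. Among the largest decreases, Uqcr11 was at 0.538 and 11.1 FPKM and Polr2e at 7.24 and 8.22 FPKM. These shares are descriptions, with no test. Transcript length and base composition differed little, with a median length of 1842 bases and 53.2% GC for genes called higher, 1996 bases and 52.2% GC for genes called lower and 2352 bases and 50.9% GC for genes not called.

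The other stages of the series have their own Cre-positive and Cre-negative SC libraries, so the same rule of 1 log2 unit in every pair of libraries could be applied to other samples. Of the 2381 genes called higher at P0.5, 29 (1.22%) were consistently higher at E17.5, 16 (0.672%) were at P7.5 and 27 (1.13%) in adult SC. Over all genes tested the shares were 1.1%, 0.747% and 1.89%. Consistently lower at those stages were 86 (3.61%), 29 (1.22%) and 32 (1.34%) of the genes called higher, against 3.34%, 1.40% and 1.72% of all genes tested. Of the 348 genes called lower at P0.5, 7, 6 and 5 were consistently lower at E17.5, P7.5 and adult, and 1, 4 and 8 were consistently higher. Differences between these shares were not tested. In the SC replicate pairs of those stages, 5.17% to 50.9% of genes at 10 FPKM or more were listed at 0 in the other replicate. Such genes cannot pass a rule that needs every pair of libraries, so low shares there do not tell whether a P0.5 difference recurs. Genes called higher at P0.5 reached 1 FPKM in both Cre-positive libraries of E17.5 in 10.2%, of P7.5 in 6.76% and of the adult in 4.16%, and in both Cre-negative libraries of these stages in 15.1%, 8.61% and 3.32%. For all genes tested the shares were 23.4%, 21% and 15.9% in Cre-positive and 28%, 22.3% and 11.6% in Cre-negative libraries, and for the genes not called they were 50.5%, 48.9% and 40.1% in Cre-positive and 54.5%, 49.9% and 28.2% in Cre-negative libraries.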

How the data were processed

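Axon-TRAP libraries were sequenced from P0.5 SC, 2 from Cre-positive and 2 from Cre-negative pups, with 2 retina libraries of that stage used for description. Ribosomes were pulled down with an HA antibody from lysates with cycloheximide and rapamycin, and the mRNA was reverse transcribed with an oligo-dT primer and amplified, with extra rounds of PCR for SC. Such amplification favours 3′ ends and can change relative levels. Reads were aligned by the authors to mm10 using TopHat2 2.0.12, and they deposited FPKM per gene symbol from Cufflinks 2.2.1, without pooling replicates.

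FPKM was analysed as log2(FPKM + 1) for genes of at least 1 FPKM in at least 2 of the 4 libraries. This left 4017 genes, of which 3 with an entry that was not a number were not tested. Groups were compared in R 4.3.3 using limma 3.58.1, with statmod 1.5.0 for robust moderation around a trend of variance on mean. Two-sided p-values were corrected over the 4014 genes (Benjamini-Hochberg), and a gene was called at an adjusted p of 0.05. Fragment totals are not in the files and were estimated from the smallest FPKM steps of genes with up to 3 transcripts. Scripts were tested on simulated data. Coordinates, lengths and GC content came from the GENCODE annotation of GRCm38 (mm10), in which 94.6% of the gene names were found by symbol and 3.88% by synonym. Alternatives were pseudocounts of 0.1 and 5, no filter, a filter of 10 FPKM, median-ratio and trimmed-mean scaling, a fit over all 16 SC libraries, a fit without trend, the replicate block and leaving out each replicate. Tables and figures used Python 3.11.15, pandas 2.3.3 and matplotlib 3.10.9.

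The comparison, its gene lists and its settings were chosen with earlier results of these data known. Named genes are Rpl22, cell type markers above 0, the 10 largest differences in each direction without overlap between groups and, per list, up to 4 called genes in each direction and up to 2 genes of at least 10 FPKM that were not called, by mean FPKM. The run-off counts of the adult were not used here. A few genes that this rule names are not reported here.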

Additional observations from a re-analysis of the deposited data

Results flagged for a closer look

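Some named genes that were consistently higher or lower at P0.5, by at least 1 log2 unit in every pair of libraries, went the opposite way by the same rule in the Cre-positive and Cre-negative SC of another stage. The difference between stages was not tested for any of them, and values are differences in mean log2(FPKM + 1), Cre-positive minus Cre-negative. At E17.5 the difference was -6.59 for Vps28, a subunit of ESCRT-I, whose Cre-negative libraries were at 182 and 65.3 FPKM there. It was -5.50 for Ndufs7 of respiratory complex I and -5.41 for Atp5o of ATP synthase, and Atp6v0b of the vacuolar ATPase was listed at 0 in both Cre-positive libraries there, against 61.1 and 29.8 FPKM. All 3 were higher at P0.5. Also at E17.5 it was -2.66 for Plxnb2, -2.72 for Sema6a, -4.32 for the ephrin-B ligand Efnb3, -2.83 for Grin1 and -3.68 for Sparc, single genes that do not stand for their lists. Of all genes called higher at P0.5, 3.61% were consistently lower at E17.5, against 3.34% of all genes tested. At P7.5 the difference was -2.22 for Dbn1 and -2.74 for Aplp1, and Tmsb10 was listed at 0 in both Cre-positive libraries against 1.97 and 1.01 FPKM. These were higher at P0.5. It was 2.53 for Chchd7, which was lower at P0.5. In the adult it was -5.30 for Vps28, and 2900055J20Rik, which was lower at P0.5, had 16.7 and 1.32 FPKM in Cre-positive libraries and 0 in both Cre-negative libraries. With 2 libraries per group no single library could be singled out.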

How the results depend on the processing

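With 2381 genes higher and 348 lower as reported, the count of higher genes stayed within 1.5 times under all scalings, pseudocounts and fits tried except those named here. A filter of 10 FPKM left 2313 genes, with 1192 higher and 228 lower, and 1228 and 249 genes past the limit of 1 log2 unit. Among the 1110 genes at 1 FPKM or more in all 4 libraries, an alternative chosen after seeing the data, 25 were higher and 6 lower, and 132 and 69 were past that limit. Both filters test fewer genes. Trimmed-mean scaling gave 552 lower genes, and a pseudocount of 5 left 1675 genes past the limit in the higher direction. The median difference over all genes was 2.5 as reported, 2.33 with median-ratio and 2.18 with trimmed-mean scaling, 5.23 with a pseudocount of 0.1 and 1.13 with a pseudocount of 5.

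Leaving out each replicate gave 600 to 2298 higher and 17 to 300 lower genes, the fewest higher genes without a Cre-negative library and the fewest lower genes without a Cre-positive library. The limit gave 2562 to 2674 higher and 419 to 600 lower genes, but with 1 library fewer it is easier to pass and cannot give fewer genes than the full set, so these counts say nothing about single libraries. The remaining library of a group is then assumed to vary like the other group. Higher genes made up 87.2% of the calls as reported, 66.7% and 71.4% without a Cre-negative library and 99.2% to 99.3% without a Cre-positive library. The cause was not tested.

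With the replicate number as a block, 2704 genes were higher and 585 lower. The labels do not tie a number to a litter, and the differences between replicates 2 and 1 correlated between the groups with r = 0.427 over genes, a hint from the data and not from the design. Of the 281 named genes, 86 to 101 lost their call without a single replicate, 62 in the fit over all 16 SC libraries, 36 of the 124 at 1 FPKM or more in all 4 libraries when these were fitted alone, 22 with a pseudocount of 5 or with no filter, 14 with trimmed-mean scaling (Sox9, Pkm, Otub1 and Gabrb2 among them, which also lost it with median-ratio scaling) and none with the block. A call was gained by 37 named genes with the block, by 19 with trimmed-mean scaling and by 11 with median-ratio scaling. A gene described as not called can therefore be called under another setting. No named gene that was called changed direction in any alternative run, while some that were not called and lay near 0, such as Apoe, Dpysl2 and Arpc4, changed sign with the scaling.

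Depth is an estimate, and with 2 libraries per group the spread is known poorly. The FPKM of 0 cannot be told apart from a value too low to sample, although genes at 10 FPKM or more should rest on over 100 fragments for a 2 kb transcript.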

Other observations

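Among genes at 1 FPKM or more in all 4 libraries, where no value of 0 enters the difference, the following were chosen after their values were seen because their differences were large. Tagln3, a neuronal member of the transgelin family, was at 422 and 258 FPKM with Cre, against 2.10 and 1.89 FPKM without it (log2 difference 6.79 ± 0.49, SE, adjusted p = 0.00219 by limma over all 4014 genes tested). Polr2f, a subunit shared by the nuclear RNA polymerases, was at 299 and 300.4 against 6.92 and 1.26 FPKM, and Ubb, a polyubiquitin gene, was at 434 and 216 against 14.5 and 1.88 FPKM. All 3 were chosen for their size, so the separation of the groups is no result.

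In the opposite direction, Rpgrip1, which encodes a protein of the photoreceptor connecting cilium, was at 3.31 and 21.4 FPKM with Cre, against 203 and 544 FPKM without it (log2 difference -5.08 ± 1.11, adjusted p = 0.0223 by limma). Uqcrh, a subunit of respiratory complex III, was at 13.4 and 8.29 against 222 and 189 FPKM, and Mpi, mannose phosphate isomerase, was at 20.2 and 8.68 against 261 and 158 FPKM. Mal2, a protein of membrane transport, was at 33 and 4.93 against 650 and 80.5 FPKM and was not called (log2 difference -4.02 ± 1.51, adjusted p = 0.0858 by limma), with a wide gap between the replicates of each group.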
